A study of Mus musculus with 201 samples.

Results

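The genes of the kainate receptor subunits, *Grik1* to *Grik5*, and of the delta receptor subunit GluD1, *Grid1*, were described across single dentate granule cells (DGCs) and their nuclei. These 6 genes were taken by symbol and were present in all 3 tables, the largest of which held 42802 symbols. Kainate receptors and delta receptors are the less abundant branches of the ionotropic glutamate receptor family, beside the AMPA and NMDA receptors. Kainate receptors are tetramers. The subunits GluK1, GluK2 and GluK3, encoded by *Grik1*, *Grik2* and *Grik3*, can form a channel by themselves, whereas the high-affinity subunits GluK4 and GluK5, encoded by *Grik4* and *Grik5*, reach the surface only together with them. Kainate receptors are best known in the hippocampus from the mossy fibres, the axons of DGCs, where they act on both sides of the synapse and can trigger seizures when overstimulated. GluD1, encoded by *Grid1*, resembles these subunits in sequence but works mainly as an adhesion receptor that binds secreted cerebellins and, through them, presynaptic neurexins.

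Each sample was a single cell or nucleus labelled as a DGC, 201 in all. The whole cells came from Prox1-GFP mice, in which the *Prox1* promoter drives GFP, were dissociated with protease and sorted as GFP+, and belonged to mice injected with saline or with PTZ, which blocks GABA(A) receptors and so triggers seizures. The nuclei came from C57BL/6 mice, described in the methods as wild-type females. One mouse was placed in an unfamiliar environment (NE) and then returned to its cage before its nuclei were sorted as PROX1+FOS+ or PROX1+FOS−, and the other stayed in the home cage (HC) and gave nuclei sorted as NEUN+PROX1+. After limits on total count and number of genes, 38 of 47 whole cells of the saline group (saline cells), 30 of 35 of the PTZ group (PTZ cells), 41 of 48 FOS− nuclei, 40 of 48 FOS+ nuclei and all 23 HC nuclei were described. The limit on genes could exclude no whole cell.

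Both sorts of NE nuclei came from the same mouse, the HC nuclei from 1 mouse, and the whole cells of each treatment from 1 preparation, of 1 mouse or a pool of mice, on which the sources differ. Cells are not replicates of a condition, so each group counts as 1 sample and no test between groups was made. Differences are given as sizes, with exact 95% intervals that cover counting error only. Titles of the cells of each treatment carry a suffix of their own, so preparation and treatment cannot be told apart. All nuclei were kept in the group of their sort, although *Fos* RNA was detected in 12 of 40 FOS+ nuclei, against 3 of 41 FOS− nuclei.

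Median total counts per cell ran from 165926 in HC nuclei to 1090750 in PTZ cells, with single cells between 63775 and 5129240. Of the DGC markers *Prox1*, *Calb1*, *Rbfox3*, *Dsp*, *Stxbp6* and *Slc17a7*, at least 1 was detected in every cell and nucleus, but *Calb1*, which marks mature DGCs, was not detected in 5 of 38 saline cells, 7 of 30 PTZ cells and 7 of 23 HC nuclei. In the whole cells, *Gad1* was the sole interneuron marker of 7 with a TPM above 1 in any cell, and *Pdgfra* and *Cspg4* of oligodendrocyte precursors were not detected. *Gad1* itself had a TPM above 1 in 86.8% of saline and 70% of PTZ cells. The summed level of 5 oligodendrocyte markers exceeded 1 TPM in 26 of 38 saline and 19 of 30 PTZ cells, and that of 4 astrocyte markers in 10 and 12.

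*Grik2*, the main pore-forming kainate subunit of DGCs, was the most abundant of the 6 genes in every group. Here a gene was called detected in a cell when its TPM, a level scaled for transcript length and library size, exceeded 1. *Grik2* was detected in 35 of 38 saline cells (92.1%, exact binomial interval 78.6% to 98.3%), 22 of 30 PTZ cells (73.3%, 54.1% to 87.7%), 36 of 41 FOS− nuclei (87.8%, 73.8% to 95.9%), 30 of 40 FOS+ nuclei (75%, 58.8% to 87.3%) and 18 of 23 HC nuclei (78.3%, 56.3% to 92.5%). Its mean level put it at percentiles 87.2 to 96.6 of all genes with any signal, depending on the group. The other 5 genes lay at percentile 75.5 or below.

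The level of *Grik2* in TPM ran from 0 to 374 with a median of 70.9 in saline cells, and from 0 to 402 with a median of 44.5 in PTZ cells. In FOS− nuclei it ran from 0 to 725 with a median of 34.7, and in FOS+ nuclei from 0 to 607 with a median of 14.8. The ranges of all groups overlapped from 0 upward. In HC nuclei the median was 29.7 TPM and the highest value 3816, and that single nucleus, HC nucleus 18, held 67.4% of all *Grik2* reads of its group. Means across HC nuclei therefore rest largely on single nuclei for this gene.

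**Figure D1:**
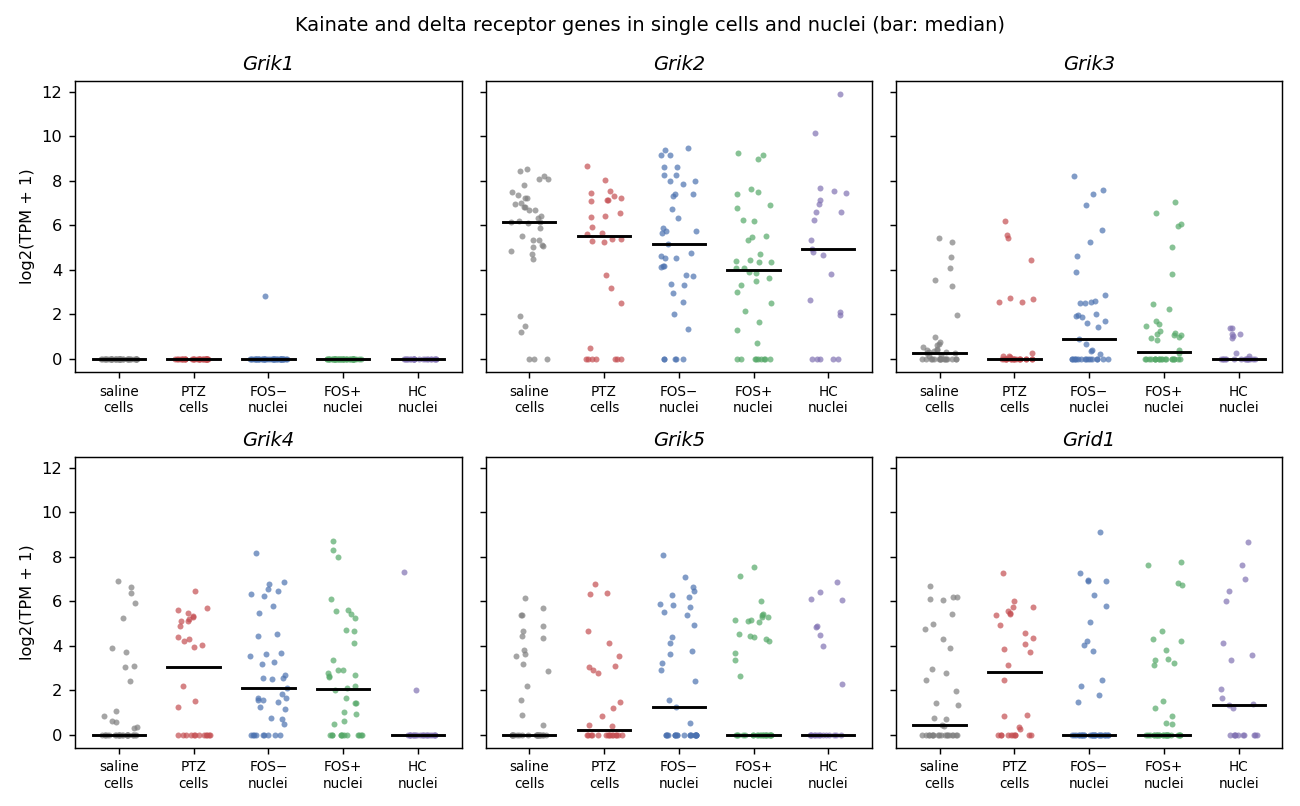
Level of each gene, as log2(TPM + 1) on the vertical axis, in every kept saline cell (n = 38), PTZ cell (n = 30), FOS− nucleus (n = 41), FOS+ nucleus (n = 40) and HC nucleus (n = 23); each point is 1 cell or nucleus and each bar the median of a group. *Grik2* had a median well above 0 in all 5 groups, *Grik1* lay at 0 in all but 1 nucleus, *Grik3* was at 0 or low in most cells, and *Grik4*, *Grik5* and *Grid1* ranged from 0 to over 60 TPM in each group.

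*Grik1*, whose product GluK1 is known in the hippocampus mainly from interneurons, was absent from nearly all profiles. FOS− nucleus 7, with 2 reads, was the only 1 of 172 cells and nuclei with any. Among 38 saline cells with 0 detections, the limit that a count of 0 allows, taken as 3 cells, was a share of up to 7.89%, with an exact binomial upper bound of 9.25%, and among 23 HC nuclei these were 13.04% and 14.8%. Because *Grik1* did not reach the minimum of 5 cells with a read, it entered no comparison of levels. The other 5 genes did.

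*Grik3*, the third subunit that can form a channel without the others, was detected in 7 of 38 saline cells and 8 of 30 PTZ cells. It was found more often in NE nuclei, in 20 of 41 FOS− nuclei (48.8%, 32.9% to 64.9%) and 16 of 40 FOS+ nuclei (40%, 24.9% to 56.7%), yet its median level among those detecting it was low, at 4.92 and 3.02 TPM. The highest *Grik3* values were 42.7 TPM in saline cells, 72.2 in PTZ cells, 302 in FOS− nuclei and 130 in FOS+ nuclei. In HC nuclei the 5 detections reached no more than 1.62 TPM.

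*Grik4*, encoding the high-affinity subunit GluK4, showed the widest spread in detection between groups. It was detected in 11 of 38 saline cells (28.9%, 15.4% to 45.9%), 18 of 30 PTZ cells (60%, 40.6% to 77.3%), 29 of 41 FOS− nuclei (70.7%, 54.5% to 83.9%) and 25 of 40 FOS+ nuclei (62.5%, 45.8% to 77.3%), but in 2 of 23 HC nuclei (8.70%, 1.07% to 28%). After each nucleus was thinned to 50000 counts, the expected shares with a read were 51.0% of FOS− nuclei and 5.63% of HC nuclei. The strain was the same, but the HC nuclei came from another mouse, sort, amplification instrument and read length, so these values stand side by side without a comparison. The median level was 0 TPM in saline cells and 8.84 in PTZ cells, with highest values of 118 and 86.2.

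*Grik5*, encoding the other high-affinity subunit GluK5, varied little in detection. The shares were 39.5% of saline cells, 40% of PTZ cells, 51.2% of FOS− nuclei, 47.5% of FOS+ nuclei and 39.1% of HC nuclei. Median levels were 0 TPM in saline cells, FOS+ nuclei and HC nuclei, 0.16 in PTZ cells and 1.35 in FOS− nuclei. Its highest values lay between 68.7 TPM in saline cells and 267 TPM in FOS− nuclei.

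*Grid1*, the delta receptor gene, was detected in 42.1% of saline cells, 53.3% of PTZ cells, 36.6% of FOS− nuclei, 35% of FOS+ nuclei and 56.5% of HC nuclei. Its highest level was 549 TPM in FOS− nuclei, 405 in HC nuclei, 216 in FOS+ nuclei, 151 in PTZ cells and 102 in saline cells, and its median was 0 in both sorts of NE nuclei. In HC nuclei, nucleus 16 alone held 76.3% of its reads.

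**Figure D2:**
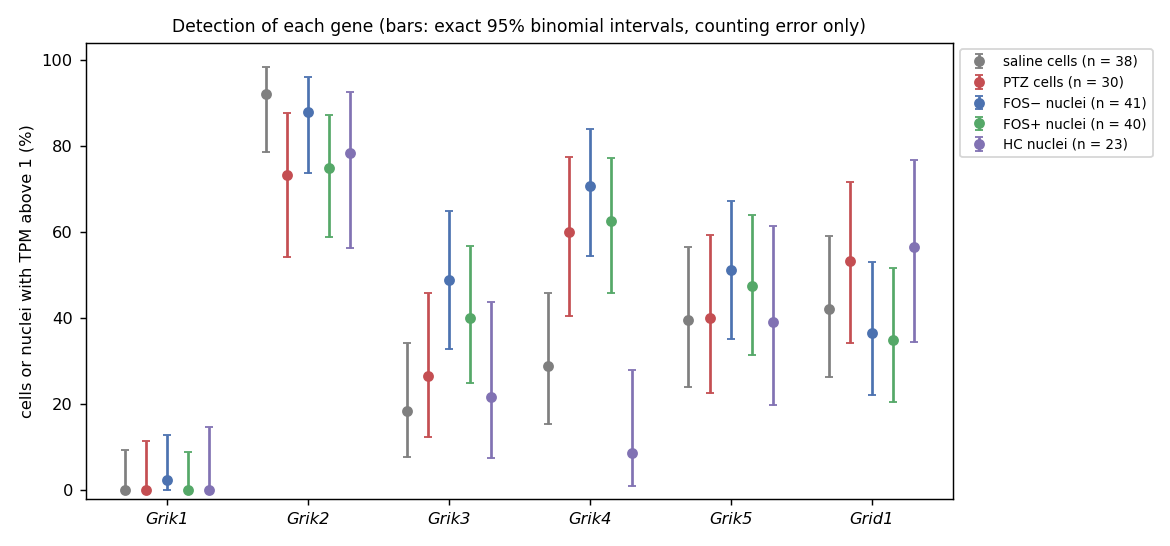
Share of cells or nuclei with a TPM above 1 for each gene, in percent, by group, with exact 95% binomial intervals that cover counting error only. *Grik2* lay between 73.3% and 92.1%, *Grik1* at or near 0, and *Grik4* ranged from 8.70% of HC nuclei to 70.7% of FOS− nuclei.

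By mean TPM the order was *Grik2* first, *Grik3* last but one and *Grik1* last in all 5 groups, while *Grid1*, *Grik4* and *Grik5* took the places between in varying order. *Grik2* averaged 103 ± 101 TPM (SD over 38 cells) in saline cells, where the next gene, *Grid1*, averaged 14 ± 26.4 TPM, and it exceeded *Grid1* in 31 of those cells and was below it in 5. In FOS+ nuclei the lead was narrower, with *Grik2* above *Grik4*, the next gene, in 23 of 40 nuclei and below it in 13. Neighbours among these intermediate genes differed by less than 1 SD over cells in every group. In PTZ cells *Grid1* was above *Grik4* in 12 cells and below it in 12, and in FOS− nuclei *Grik5* was above *Grik4* in 16 and below it in 20.

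Seen cell by cell, *Grik2* had the highest TPM of the 6 genes in 30 of 38 saline cells, 17 of 30 PTZ cells, 23 of 41 FOS− nuclei, 14 of 40 FOS+ nuclei and 12 of 23 HC nuclei. A median of 2 of the 6 genes was detected per whole cell and per HC nucleus, and 3 per NE nucleus. GluK4 and GluK5 need a partner from the other class, and most cells that had RNA for them also had RNA for a partner. Of the cells with *Grik4* or *Grik5*, *Grik1*, *Grik2* or *Grik3* was also detected in 19 of 20 saline cells, 18 of 22 PTZ cells, 31 of 33 FOS− nuclei, 28 of 31 FOS+ nuclei and 8 of 9 HC nuclei. Given how common *Grik2* was, these counts describe overlap and were not compared with what independent detection would give. *Grik4* and *Grik5* were detected together in 6, 8, 17, 13 and 2 cells or nuclei of those groups.

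The comparison of FOS+ with FOS− nuclei asks how nuclei of neurons activated in the NE differed from those of neurons that were not. For it the reads of each group were summed and expressed as CPM, counts scaled to each group's total, and a ratio of 2-fold or more was used as a rule of size. No receptor gene was 2-fold higher in FOS+ nuclei and 2 of the 5 compared were 2-fold lower, *Grik3* and *Grid1*. Among all 16370 genes compared, 17.9% were at least 2-fold higher and 28.3% at least 2-fold lower. The log2 ratio had a median of −0.83 over the 5 genes and −0.20 over all genes. A share of 2 in 5 genes is not far from that background.

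*Grik2* reached 281 CPM (exact Poisson interval 272 to 290) in FOS− nuclei and 158 CPM (151 to 164) in FOS+ nuclei, a 1.78-fold lower sum in FOS+ nuclei, and its detection was 12.8 percentage points lower. Leaving out FOS+ nucleus 1, 3 or 29 took the ratio past 2-fold, to at most 2.08-fold lower. *Grik2* was lower in FOS+ nuclei in 3 of the 4 amplification conditions that the NE nuclei were spread over, which combined a template-switching oligo (TSO) at 1 or 10 µM with ERCC spike-ins diluted 1:200 or 1:2000. At 10 µM and 1:2000 it was 10.2-fold lower, and at 10 µM and 1:200 it was 2.93-fold higher.

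*Grik3* summed to 129 CPM in FOS− nuclei and 50.4 CPM in FOS+ nuclei, 2.56-fold lower in the latter. Single nuclei weighed heavily, since FOS− nucleus 29 held 46.1% of the FOS− reads and FOS+ nucleus 47 held 44.8% of the FOS+ reads. Without the first the ratio was 1.46-fold lower and without the second 4.31-fold lower. The amplification conditions also split it. With the TSO at 10 µM, *Grik3* was 1.31-fold and 1.32-fold higher in FOS+ nuclei at the 2 spike-in dilutions, and with the TSO at 1 µM it was at 2.20 and 1.83 CPM in FOS+ nuclei against 281 and 132 CPM in FOS− nuclei.

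*Grik4* was close to even, at 85.4 CPM in FOS− nuclei and 96.1 CPM in FOS+ nuclei, but FOS− nucleus 26 held 52% of the FOS− reads, and without it the ratio was 2.17-fold higher in FOS+ nuclei. Without FOS+ nucleus 32, *Grik4* was 1.25-fold lower. *Grik5* stood at 52.5 CPM in FOS− nuclei and 58 CPM in FOS+ nuclei, with 2 amplification conditions higher and 2 lower, and was 1.11-fold lower in FOS+ nuclei without FOS+ nucleus 34. For *Grik4* and *Grik5*, detection differed by −8.23 and −3.72 points.

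*Grid1* had the largest ratio of summed CPM of the 5 genes, with 89.1 CPM (84.2 to 94.2) in FOS− nuclei and 23.5 CPM (21.1 to 26.2) in FOS+ nuclei, 3.79-fold lower. Leaving out each nucleus in turn kept it between 2.70-fold and 5.07-fold lower, and it was lower in 3 of the 4 conditions. The number of nuclei with *Grid1* hardly differed, at 15 of 41 FOS− and 14 of 40 FOS+ nuclei, while the median level where it was detected was 32.7 TPM in FOS− nuclei and 15.1 TPM in FOS+ nuclei. When nuclei were weighted equally by mean TPM, *Grid1* was 1.69-fold lower and no longer past the rule of size, behind *Grik3* at 2.24-fold and *Grik2* at 1.91-fold lower, and by mean CPM per nucleus its log2 ratio was −0.98.

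A second rule of size was a difference in detection of at least 15 percentage points, which 8.25% of all genes exceeded upward and 8.14% downward between FOS+ and FOS− nuclei. None of the 6 receptor genes exceeded it. By the share of nuclei whose summed marker level exceeded 1 TPM, the interneuron and astrocyte lists differed most between the sorts. The summed level of the 7 interneuron markers exceeded 1 TPM in 51.2% of FOS− nuclei and 75% of FOS+ nuclei. These sums ran from 0 to 6238 TPM and from 0 to 1360 TPM, and *Pvalb* was not detected in either sort. *Gad1* and *Gad2* were detected more often in FOS+ nuclei (47.5% against 36.6%, and 35% against 17.1%), and *Slc32a1*, *Sst* and *Erbb4* less often. At least 2 of the 7 interneuron markers were found in 9 FOS− and 10 FOS+ nuclei. Without those nuclei the log2 ratio of *Grik2* was −1.34, past 2-fold, and the detection differences of *Grik2* and *Grik5*, FOS+ minus FOS−, were −17.7 and −19.6 points. The summed level of the 4 astrocyte markers exceeded 1 TPM in 65.9% of FOS− and 82.5% of FOS+ nuclei. Without nuclei holding at least 2 of these markers, the log2 ratio of *Grik4* was 1.09 and that of *Grid1* −1.21. Of the other lists, the summed oligodendrocyte markers exceeded 1 TPM in 36 of 41 FOS− and 37 of 40 FOS+ nuclei. The precursor sum did so in 2 and 3, the microglia sum in 34 and 30, and the endothelial sum in 19 and 19. The part of such RNA in these values was not tested.

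**Figure D3:**
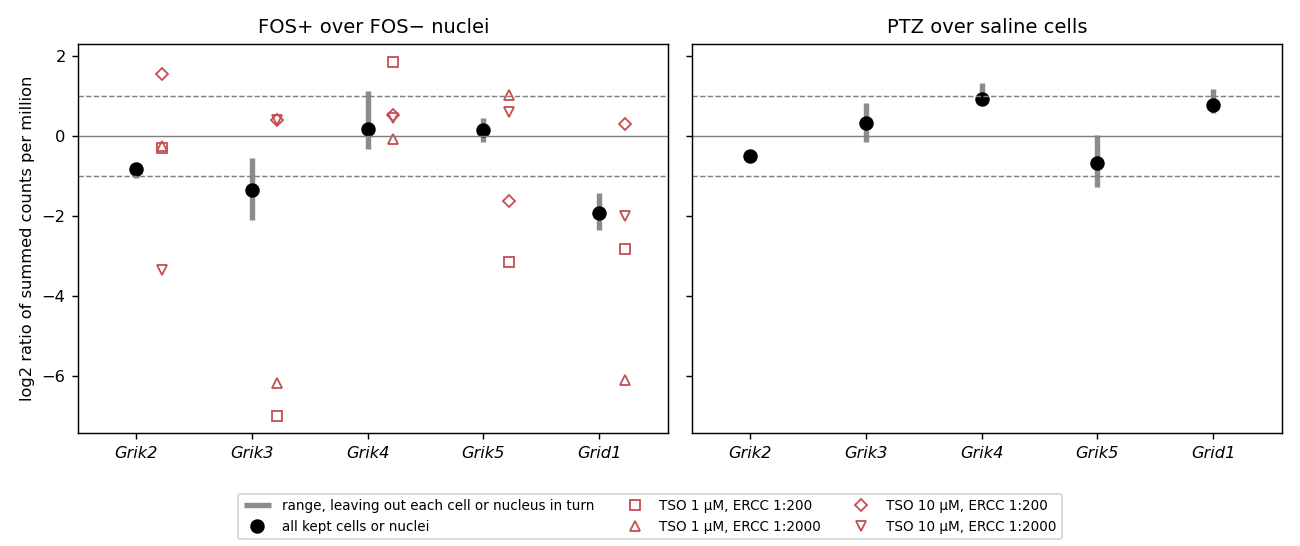
Log2 ratio of summed CPM for the 5 genes compared, FOS+ over FOS− nuclei on the left and PTZ over saline cells on the right. Black points use all kept cells, grey bars span the values when each cell or nucleus is left out in turn, red symbols are the 4 amplification conditions with sums under 3 counts set to 3, and dashed lines mark 2-fold. *Grik3* and *Grid1* lay below the lower line among nuclei, no gene lay beyond either line among whole cells, and for each of the 5 genes the conditions spanned a wider range than the values with single nuclei left out.

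The comparison of PTZ with saline cells asks how whole DGCs of stimulated mice differed from those of control mice. No receptor gene was past 2-fold in either direction, against 13.2% of the 14433 genes compared that were at least 2-fold higher and 14.1% that were at least 2-fold lower. The median log2 ratio was 0.31 over the 5 receptor genes and −0.04 over all genes. By detection, *Grik4* was found more often in PTZ cells and *Grik2* less often. Over all genes, 7.30% were at least 15 points higher and 9.45% at least 15 points lower.

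*Grik4* detection was 31.1 points higher in PTZ cells, and 0.38% of the genes compared had a difference at least as large in that direction. The summed level was 48.1 CPM (46 to 50.2) in PTZ cells and 25.2 CPM (23.7 to 26.8) in saline cells, 1.91-fold higher. Its ratio stood near the rule of size, and leaving out 1 of 7 single cells took it past 2-fold. These were PTZ cells 25 and 26 and saline cells 5, 15, 24, 29 and 45, and the highest ratio, 2.51-fold, came without saline cell 5. The lowest ratio, 1.71-fold, came without PTZ cell 23, and by mean TPM *Grik4* was 1.52-fold higher. After thinning to 50000 counts, the expected shares with a *Grik4* read were 50.2% and 22.3%. Among cells with *Calb1*, *Grik4* was detected in 15 of 23 PTZ and 10 of 33 saline cells.

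*Grik2* detection was 18.8 points lower in PTZ cells, with sums of 133 CPM against 187 CPM, 1.41-fold lower. Of the 8 PTZ cells without *Grik2*, 5 also lacked *Calb1*. Among cells with *Calb1*, *Grik2* was detected in 20 of 23 PTZ cells (87.0%) and 31 of 33 saline cells (93.9%), a difference of −6.98 points and under the rule of size. PTZ cell 22, without *Grik2* or *Calb1*, held 11579 TPM of the 4 astrocyte markers summed, whereas the highest sum in a saline cell was 178 TPM. At least 2 astrocyte markers were detected in 4 PTZ and 1 saline cells, and *Aqp4* in none. Without those cells the detection difference, PTZ minus saline, was −18.8 points for *Grik2* and 28 points for *Grik4*.

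The detection of *Grid1* was 11.2 points higher in PTZ cells and its sum was 1.70-fold higher, at 47.5 CPM against 27.9 CPM. Without saline cell 33 *Grid1* was 2.23-fold higher, without PTZ cell 4 it was 1.49-fold higher, and by mean TPM 1.47-fold higher. *Grik3* stood at 22.8 CPM in PTZ cells and 18.4 CPM in saline cells, and was 1.10-fold lower in PTZ cells without PTZ cell 19. *Grik5* was at 13.7 CPM among the PTZ and 22 CPM among the saline cells, but 42.5% of the latter came from saline cell 33, without which the log2 ratio was 0.02, and without PTZ cell 32 the sum was 2.45-fold lower. By mean TPM the direction was reversed, with *Grik5* 1.27-fold higher in PTZ cells.

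Kainate receptors are assembled with auxiliary and secreted partners, of which 9 were examined as a list. *Neto1* and *Neto2*, which encode auxiliary subunits that set the gating of kainate receptors, were both higher in FOS+ nuclei. *Neto1* was detected in 19 of 40 FOS+ nuclei and 10 of 41 FOS− nuclei and summed to 137 CPM against 17.7 CPM, 7.75-fold higher. FOS− nucleus 40 held 74.5% of the FOS− reads, and without it the ratio was 30.1-fold. *Neto2* was detected in 8 of 40 FOS+ nuclei and 2 of 41 FOS− nuclei and its sum was higher too, at 40.8 CPM against 1.36 CPM, 4.51-fold without FOS+ nucleus 33 and 113-fold without FOS− nucleus 6. Both were higher in FOS+ nuclei in all 4 amplification conditions, although the FOS− level was under 1 CPM in 5 of these 8 comparisons. Some rested on single nuclei. At 1 µM and 1:2000, *Neto1* was detected in 1 of 8 FOS+ and 1 of 10 FOS− nuclei. At 1 µM and 1:200, *Neto2* was detected in 1 of 10 nuclei of each sort and was 1.24-fold higher. FOS+ nucleus 33 held 85.8% of the FOS+ reads of *Neto2*. Without the nuclei that held at least 2 interneuron markers, the log2 ratios were 2.53 and 1.37 in place of 2.95 and 4.91, and *Neto2* detection was 13.8 points higher, under the rule of size.

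*C1ql2* and *C1ql3* encode C1q-like proteins that mossy fibres secrete and that gather kainate receptors at the synapse. *C1ql2* was 2.74-fold lower in FOS+ nuclei, at 90.8 CPM against 248 CPM, and 2.00-fold lower without FOS− nucleus 25, just under the rule of size. Its detection was 15.98 points lower and that of *C1ql3* 20.2 points lower. *Dlg4*, encoding the scaffold PSD-95, was 3.03-fold lower, but 1.57-fold lower without FOS− nucleus 46. In all, 2 of 9 partners were 2-fold higher and 2 were 2-fold lower in FOS+ nuclei, with a median log2 ratio of −0.73. Over all genes compared, 17.9% were 2-fold higher and 28.3% lower, with a median of −0.20, so these counts are not far from that background. By detection, 2 partners were at least 15 points higher and 2 lower, against 8.25% and 8.14% of all genes. The 5 partners within 2-fold were between 1.06-fold and 1.89-fold lower. Among them was *Pick1*, a PDZ scaffold gene detected in 36 of 40 FOS+ and 33 of 41 FOS− nuclei. Its counts were not whole numbers in 87.5% of FOS+ and 80.5% of FOS− nuclei, and reached at least 5 in 57.5% and 43.9%. Single nuclei moved several of these ratios past 2-fold. *Klhl24* was 2.55-fold lower without FOS+ nucleus 20, *Pick1* 2.495-fold lower without FOS+ nucleus 43 and 1.06-fold lower without FOS− nucleus 46, and *Klhl17* 2.68-fold lower without FOS+ nucleus 26 but 1.36-fold higher without FOS− nucleus 8. *Grip1*, encoding another PDZ scaffold, was 2.38-fold higher without FOS− nucleus 34 and 2.22-fold higher by mean TPM.

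Between PTZ and saline cells, 8 of the 9 partners were compared, and *Dlg4* alone was past 2-fold, at 2.17-fold lower. Over all genes, 13.2% were at least 2-fold higher and 14.1% at least 2-fold lower. *Dlg4* was 1.71-fold lower without saline cell 10 and 2.00-fold lower, just under the rule, without saline cell 21, and by mean TPM it was 1.22-fold higher. *Grip1* was 1.56-fold higher, 2.52-fold without saline cell 10 and 2.93-fold by mean TPM. *Neto1* was detected in 16 of 30 and 19 of 38 cells. *Klhl24*, whose product binds GluK2, had a detection 21.2 points higher in PTZ cells, and *C1ql2* one 17.4 points lower. Differences of at least 15 points upward were found in 7.30% of all genes, and downward in 9.45%.

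The cerebellins, secreted partners of GluD1, were scarce or, for *Cbln3*, present at few reads. *Cbln1* and *Cbln4* were not detected in any group and *Cbln2* was detected in 1 FOS− nucleus. *Cbln3*, the only one with enough reads to be compared, averaged 0.24 to 4.34 TPM over the groups and was not past 2-fold between FOS+ and FOS− nuclei. It was detected in 17 of 23 HC, 20 of 40 FOS+ and 17 of 41 FOS− nuclei, and in 6 of 38 saline and 3 of 30 PTZ cells. In the nuclei these detections rested on 49, 68 and 59 reads in all, with at most 9 in a nucleus. A count of at least 5 was reached in 17.4%, 10% and 9.76% of the nuclei and in no whole cell. Counts of *Cbln3* were not whole numbers in 78.3%, 65% and 51.2% of the nuclei. Between PTZ and saline cells it rested on 10 and 19 reads and was 1.92-fold lower, but 3.18-fold lower without PTZ cell 12 and 2.32-fold higher by mean TPM.

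**Figure D4:**
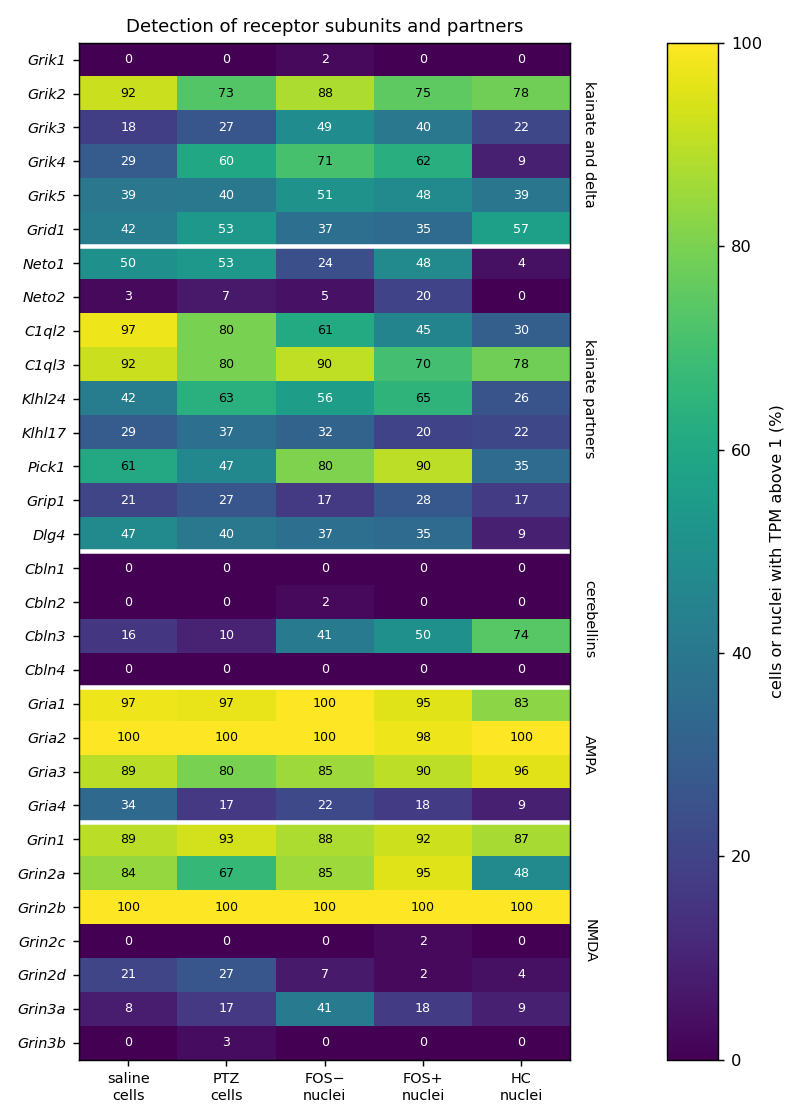
Share of cells or nuclei, in percent, with a TPM above 1 for the 6 kainate and delta receptor genes described here, kainate receptor partners, cerebellins, and the AMPA and NMDA receptor subunits, in each of the 5 groups; numbers in the cells are rounded shares. *Grik2* was the only one of the 6 with shares near those of *Gria1*, *Gria2*, *Gria3*, *Grin1* and *Grin2b*.

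By mean TPM, *Grik2* stood below *Gria2* and *Grin2b* in every group and above *Gria4*, *Grin2c*, *Grin2d*, *Grin3a* and *Grin3b* in every group. *Gria2*, an AMPA receptor subunit, averaged 912 TPM in saline cells and 1470 TPM in FOS− nuclei, where *Grik2* averaged 103 and 142 TPM. *Grin2b*, an NMDA receptor subunit, averaged 197 and 930 TPM and was detected in every cell and nucleus. The order against the remaining subunits depended on the group, and in HC nuclei *Grik2*, at 270 TPM largely from nucleus 18, was above *Gria1* at 171 TPM and *Gria3* at 223 TPM. *Gria4*, an AMPA subunit, was 2.30-fold higher in FOS+ nuclei, 1.97-fold without FOS+ nucleus 10, and lower, by a log2 ratio of −0.13, without FOS+ nucleus 33. It was the only one of 4 AMPA and 4 NMDA subunits compared to pass 2-fold there, and *Grin3a*, 1.69-fold lower and 12.4-fold lower without FOS+ nucleus 32, had a detection 23.96 points lower in FOS+ nuclei. Between PTZ and saline cells none of the 9 AMPA and NMDA subunits compared was past 2-fold, while *Gria4* and *Grin2a* each had a detection 17.5 points lower in PTZ cells. Without PTZ cell 19, *Grin2a* was 2.04-fold lower. Over all genes, 17.9% were 2-fold higher and 28.3% lower between the nuclei, and 13.2% and 14.1% between the whole cells. By detection, 8.25% were at least 15 points higher and 8.14% lower between the nuclei, and 7.30% and 9.45% between the whole cells.

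As a check of the sort, *Fos*, *Arc*, *Egr1* and *Homer1*, genes induced by neuronal activity, were all over 2-fold higher in FOS+ nuclei and past 15 points of detection, and *Arc* was detected in 77.5% of them against 2.44% of FOS− nuclei. None of the 4 was 2-fold higher in PTZ cells, although *Fos* was detected in 86.7% and 78.9% of PTZ and saline cells, and *Homer1* was 2.33-fold lower, or 1.81-fold without saline cell 33. The detection of *Homer1* and *Egr1* was 26 and 18.9 points lower in PTZ cells, past the rule of size, which 9.45% of all genes exceeded downward. Of the 2 RNA editing enzymes examined, *Adarb1* encodes the enzyme that edits the pore site of GluK2, and it differed by log2 ratios of 0.37 between the nuclei and 0.03 between the whole cells. *Adar* was 3.45-fold lower in PTZ cells and was detected in 36.7% of them against 76.3% of saline cells. The tables count reads per gene and do not show editing.

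The genes whose levels most resembled those of each receptor gene across the 81 NE nuclei were found by Spearman correlation among 10299 genes and are given as a description. They were *Fgd4* (0.53), *Hsd3b2* and *0610038B21Rik* (both 0.45) for *Grik2*, *Mtfp1* (0.59), *Htt* (0.50) and *Taok3* (0.48) for *Grik3*, *Nol6*, *Tmed2* and *Ppp1r7* (each 0.41) for *Grik4*, *Zfp444* (0.49) and *Rexo2* (0.47) for *Grik5*, and *Hist4h4* (0.54), *Tspyl2* and *Zfp451* (both 0.53) for *Grid1*. These pairs had correlations between −0.25 and 0.38 across 68 whole cells. The nuclei share a mouse, and each receptor gene also correlated with the number of genes detected, at 0.21 to 0.40. Among the receptor genes themselves the highest correlation was 0.30, between *Grik3* and *Grid1*.

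In the GRCm38 assembly all 6 are protein-coding genes that sit on different chromosomes and are mostly intron. *Grik1* spans chr16:87895900-88290265 and *Grik2* chr10:49094833-49788766, both on the minus strand. *Grik3* lies on the plus strand at chr4:125490700-125714173. On the minus strand are *Grik4* at chr9:42518135-42944493 and *Grik5* at chr7:25009849-25072346. *Grid1*, the longest at 763 kb, lies on the plus strand at chr14:34820108-35583379. Annotated exons make up 0.78% of *Grid1* and 8.27% of *Grik5*, the lowest and highest shares of the 6. The tables give 1 value per gene and do not separate exon from intron reads. Exons of *Grik4* and *Grid1* each overlap a small RNA gene on the same strand, *Gm24420* and *Gm27617*. Counts that were not whole numbers occurred with and without such an overlap, in 58.5% of FOS− nuclei for *Grik4* and 29.3% for *Grid1*, and in 56.1% for *Grik2* and 51.2% for *Grik3*.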

How the data were processed

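The authors deposited expected counts and TPM for each cell and nucleus in 3 tables, for whole cells, NE nuclei and HC nuclei. Expected counts are RSEM's estimates of reads per gene, deposited without normalization, and the deposited TPM values are scaled per cell and length by the authors. The submitters' processing notes name RSEM, Bowtie 1.0.0 and mm10. Counts were rounded. Cells were kept if their total exceeded 50000 and their number of genes over 1 TPM exceeded the table's mean less 2 SD. That gene limit was −5.39 for whole cells, where it could exclude none, 693 for NE nuclei and 2495 for HC nuclei. All HC nuclei were kept, 22 of 23 of which passed both limits. Genes were compared with a read in at least 5 cells and more than 3 reads in a group. CPM ratios were computed from summed counts, sums under 3 set to 3, with exact Poisson and Clopper-Pearson intervals. A count of 3 is the floor. The reads carry no molecular identifiers, so they are not independent molecules and intervals cover counting error only, and Smart-seq2 reads do not mark strand. The study's edgeR test, with nuclei as replicates, was not run, because nuclei of 1 mouse are not replicates. The alternatives tried were equal weighting, TPM, within-condition ratios, all cells, median-ratio scaling, other filters and detection limits, thinning, leaving out each cell, and cells chosen by markers. The receptor genes, the lists of partners, AMPA and NMDA subunits, activity genes, editing enzymes and cell type markers, and the rules of size were chosen with earlier results of these data known. Results of a few genes are not reported here. From the lists, genes past a rule of size and the best detected gene of each were named. Computations used Python 3.11.15, numpy 2.4.6, pandas 2.3.3 and scipy 1.17.1 and were tested on simulated data.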

Additional observations from a re-analysis of the deposited data

How the results depend on the processing

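*Grik2* kept the first place in every group by median TPM, mean log2(TPM + 1), share detected and without any single cell. The number of receptor genes past 2-fold between FOS+ and FOS− nuclei was 2, but 1 by mean CPM per nucleus and 1 by mean TPM, and 1 to 3 when each nucleus was left out in turn. Past 15 points of detection it was 0, but 1 at a TPM above 5, 1 after thinning, 0 to 1 when each nucleus was left out, and 2 without nuclei holding at least 2 interneuron markers. Between PTZ and saline cells the number past 2-fold was 0, but 1 by mean CPM per cell, 1 with *Calb1*-positive cells only, and 0 to 1 when each cell was left out. By detection it was 2, but 1 with all cells and 1 with *Calb1*-positive cells only. The choices by *Calb1* and by interneuron and astrocyte markers were made after seeing the data. The causes were not tested.

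Among the ratios past 2-fold, those of *Dlg4* and *Gria4* changed direction. *Dlg4* did so between nuclei (0.93 on the log2 scale without nuclei holding at least 2 astrocyte markers) and between whole cells (0.29 by mean TPM). *Gria4* did so between nuclei (−0.28 without nuclei holding at least 2 interneuron markers, and −0.13 to 1.77 when each nucleus was left out). Ratios under 2-fold changed direction too, among them *Grik3*, *Grik5* and *Cbln3* between whole cells and *Grik4*, *Grik5*, *Klhl17* and *Grip1* between nuclei. In whole cells the correlations were negative for *Grik4* with *Tmed2* (−0.22), *Grik5* with *Zfp444* (−0.25) and *Rexo2* (−0.019), and *Grid1* with *Tspyl2* (−0.070). No paired analysis was possible because each group counts as 1 sample and no test was made. Depth limits the genes under about 1 TPM, such as *Grik3* in HC nuclei.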
